A study of Homo sapiens with 8 samples.

Results

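The combined treatment of LNCaP cells with OSMI-2 and AT7519 was compared with control cells after 4 h. LNCaP, an established line from a lymph node metastasis of human prostate cancer, depends on androgens and secretes prostate-specific antigen. RNA was sequenced in 8 libraries, 2 each of control, of 40 µM OSMI-2, of 0.5 µM AT7519 and of the combination, which holds both agents at those doses. These doses come from the series design, whereas the sample labels write them in mM, and what the control cells received is not described further. The labels name no genetic change in any group, so the comparison describes 1 cell line at 1 dose pair and 1 time. It rests on 4 of the 8 libraries and on the 19416 of 55737 genes in the deposited table whose mean over these 4 libraries was at least 10 normalised counts. A normalised count is a gene's read count after the authors' division by their size factor for that library. Among protein-coding genes, KCNK7 lay just inside this minimum with a mean of 10.1 and ALDH3A1 just outside it with 9.995. Of the genes tested, 648 had a mean under 10 in control only and 563 in the combination only.

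OSMI-2 is an inhibitor of OGT, or O-GlcNAc transferase, which adds single N-acetylglucosamine sugars to nuclear and cytosolic proteins, RNA polymerase II among them. AT7519 inhibits several cyclin-dependent kinases (CDKs), including CDK9. With cyclin T, CDK9 forms P-TEFb, which phosphorylates the polymerase, DSIF and NELF and so releases polymerases paused shortly after the start of a gene. Much of the cell's P-TEFb is held inactive by the 7SK RNA with HEXIM1, MEPCE and LARP7. RNAs with a short life, such as those of immediate early genes, MYC and MCL1, are known to fall soonest when transcription elongation is blocked, whereas stable mRNAs fall late. The series addresses whether loss of OGT activity makes prostate cancer cells more dependent on CDK9.

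Reads assigned to genes ranged from 60152710, in combination replicate 2, to 154367238, in control replicate 1. Because the depths differ, 3 reads correspond to 1.76 to 5.47 normalised counts, and values below that are near the limit of detection. Replicates correlated with r = 0.994 in control and 0.988 in the combination over the log2 values of all tested genes. Nothing in the labels says that the libraries of a group came from separate cultures, so p-values measure only the spread between libraries, which may be technical. The share of counts from mitochondrially encoded mRNAs was 4.45% to 5.53% where AT7519 was absent and 6.57% to 7.73% where it was present (4 libraries each). Luminal prostate markers summed to 607327 and 621759 normalised counts in control and to 659868 and 753005 in the combination, so the defining markers of the labelled line were present. Basal markers summed to 293 and 326 against 504 and 883, with KRT5 and TP63 near 0, and 2 of their 4 tested members rose. Neuroendocrine markers summed to 692 and 603 against 765 and 954, with INSM1 at 0. Fibroblast and smooth muscle markers summed to 4255 and 4436 against 6518 and 7692, and 3 of their 6 tested members rose. Immune markers summed to between 20.1 and 28.7 in these 4 libraries, and endothelial markers to 1578 and 1527 against 1411 and 1583. The part of these other markers in the results was not tested. In such bulk RNA, fewer cells of a type and less RNA per cell cannot be told apart.

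The combination changed most of the genes tested. With an adjusted p under 0.05 as the call, 10450 genes were called between the combination and control, which is 53.8% of those tested. Of these, 5113 (26.3%) rose and 5337 (27.5%) fell. The falls were the larger changes, since 2439 genes (12.6%) fell by 1 or more on the log2 scale, against 1063 (5.47%) that rose by as much. A log2 change is the difference between the group means of log2 values after adding 1. The balance of rises and falls depends on the scale: the median gene stood at 0.03 on the deposited scale, at -0.23 with equal totals over genes (2660 rose, 7351 fell), at 0.17 with equal upper quartiles (6516 rose, 4460 fell) and at -0.94 with mitochondrially encoded mRNAs set equal (433 rose, 14548 fell). Read counts alone give relative levels, so none of these scales is known to be the absolute one. With mitochondrially encoded mRNAs set equal, every list described below had a median under 0, except these mRNAs themselves and the small nucleolar and Cajal body RNAs. Changes below are on the deposited scale, the medians of gene lists are to be read against 0.03, and shares against 26.3% and 27.5%.

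OGT mRNA, which encodes the target of OSMI-2, was higher with the combination. It measured 24330 and 23509 normalised counts in control, 31597 and 30152 with OSMI-2 alone, 23384 and 29175 with AT7519 alone, and 38849 and 37923 with both. Both combination libraries lay above all 6 others, and the rise over control was 1.6-fold (log2 0.68, SE 0.091, adjusted p = 1.86e-05). GFPT1, the rate-limiting enzyme of the hexosamine pathway that makes the sugar donor of OGT, rose from 13557 and 15434 to 21641 and 24932 (log2 0.68). MGEA5, the hydrolase that removes the sugar, measured 28414 and 24816 in control and 27258 and 28200 with the combination, and these values overlap. Its direction depended on the scale: a rise was called with equal upper quartiles (log2 0.20), and a fall with equal totals (log2 -0.20), with quantile normalisation (log2 -0.20) and with mitochondrially encoded mRNAs set equal (log2 -0.92). Among the 14 genes of O-GlcNAc cycling and the hexosamine pathway, 4 rose and 2 fell, with a median of 0.08. OGT and GFPT1 stood at -0.30 and -0.29 when mitochondrially encoded mRNAs were set equal.

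The kinase of P-TEFb was slightly higher, whereas its main cyclin and 3 of its inhibitors were lower. CDK9 rose slightly, from 4872 and 4966 in control to 6621 and 5663 (log2 0.32, adjusted p = 0.00848). Without combination replicate 1 the change was 0.20 and no longer called, with equal totals it was 0.06, and with mitochondrially encoded mRNAs set equal it was -0.66. CCNT1, the main cyclin partner of CDK9, fell from 10351 and 11128 to 8183 and 5845 (log2 -0.63, SE 0.12, adjusted p = 0.0004).

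The inhibitors MEPCE, HEXIM1 and HEXIM2 fell far more. MEPCE, which caps the 7SK RNA and holds the complex together, measured 10631 and 10745 in control and 1120 and 1005 with the combination. That is 10.1-fold lower (log2 -3.33, SE 0.12, adjusted p = 6.32e-10), with both combination libraries about as low as the AT7519 libraries at 1222 and 920. HEXIM1, the protein that inhibits P-TEFb within the complex, fell from 6261 and 6719 to 1950 and 2409 (log2 -1.58, SE 0.11, adjusted p = 4.51e-08). HEXIM2, its close relative, fell from 744 and 752 to 199 and 182 (log2 -1.97). LARP7, which binds the end of the 7SK RNA, measured 7600 and 7972 against 7153 and 6565 and did not pass the test, although it did with equal totals (log2 -0.44). Over the 9 genes of the group 2 rose and 5 fell, with a median of -0.35.

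Elongation factors that act with P-TEFb moved in both directions. None of the 13 genes of the BET bromodomain family and the super elongation complex rose and 9 fell, with a median of -0.74. AFF1, a scaffold of the super elongation complex, went from 9873 and 10497 to 3583 and 3912 (log2 -1.44). BRD2, which reads acetylated histones, went from 14802 and 14749 to 6691 and 5719 (log2 -1.26). Of 14 genes of the pausing factors NELF and DSIF and of the PAF1 complex, 6 rose and 3 fell. The pausing subunits NELFCD (log2 0.57) and SUPT5H (log2 0.55) rose on the deposited scale but stood at -0.41 and -0.43 with mitochondrially encoded mRNAs set equal, while LEO1 of the PAF1 complex fell (log2 -1.18).

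Other transcriptional kinases moved in both directions. CDK8 of the Mediator kinase module (log2 -1.42), CDK13 (log2 -1.39), CDK7 of TFIIH (log2 -1.28) and CDK12 (log2 -0.58) all fell. CCNL1, a cyclin of the splicing-linked kinase CDK11, went the other way, from 8370 and 7854 to 35125 and 32363. This 4.16-fold rise (log2 2.06, SE 0.085, adjusted p = 1.71e-09) separates the groups with no overlap and was also present with AT7519 alone, at 37216 and 42853. Of the 15 genes of this list 6 rose and 5 fell.

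**Figure D1:**
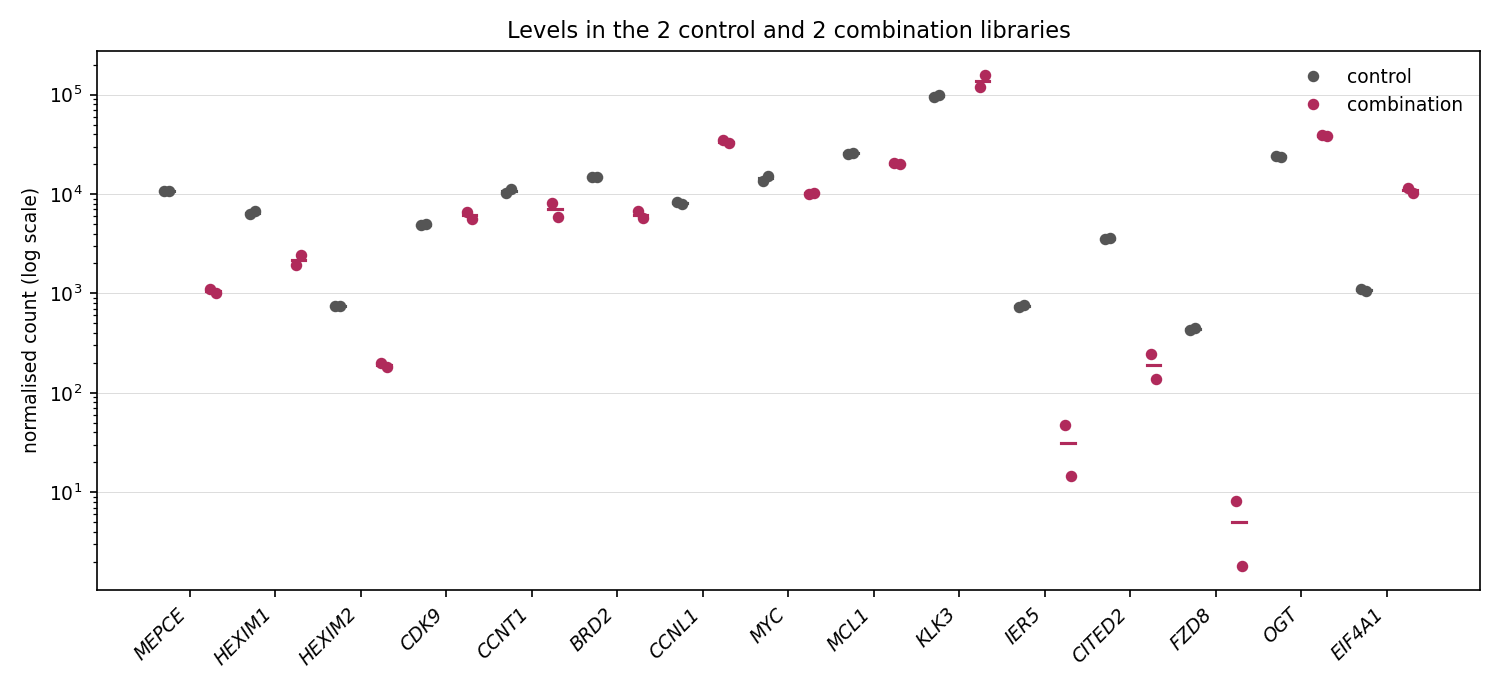
Normalised counts (log axis) of 15 genes in the 2 control and 2 combination libraries; points are libraries and short bars are group means. MEPCE, HEXIM1, HEXIM2, IER5, CITED2 and FZD8 are lower with the combination, FZD8 from over 400 to under 10, while CCNL1 and EIF4A1 are higher.

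Genes that respond within minutes to growth signals were among the deepest falls. Of 42 immediate early genes 35 could be tested, and 29 of them fell and 2 rose, with a median of -1.59. IER5, an immediate early regulator, measured 737 and 769 normalised counts in control, 176 and 186 with AT7519, and 47.2 and 14.6 with both agents. It was 27.5-fold lower than control (log2 -4.78, SE 0.36, adjusted p = 1.03e-07), and the combination libraries lay below all 6 others. CITED2, a transcriptional coregulator that binds CBP and p300, fell from 3494 and 3581 to 243 and 139 (log2 -4.26, SE 0.22, adjusted p = 5.48e-09). IER2 fell as well (log2 -2.23). JUND, an AP-1 subunit, was the main exception, with 4735 and 3017 in control and 8980 and 8176 with the combination (log2 1.18, and 0.20 without a call when mitochondrially encoded mRNAs were set equal).

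Antiproliferative and matrix-signalling members of this response fell with them. BTG2, which recruits the deadenylase that shortens mRNA tails, measured 7580 and 6648 in control and 1626 and 821 with the combination (log2 -2.62, SE 0.22, adjusted p = 2.67e-07). PLK2, a kinase induced by serum and by p53, went from 2901 and 2699 to 464 and 301 (log2 -2.90). CYR61, a secreted matrix protein and a target of YAP, went from 838 and 769 to 107 and 65.7 (log2 -3.25). In none of these genes did the libraries of the groups overlap.

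The largest falls by the rule used to name genes were of FZD8, SNAI2, CCDC87, SNAI1, FRAT1, SOX9, OTUD1, IER5 and LRFN2, leaving 1 further gene near the floor aside. FZD8, SNAI1, SNAI2 and SOX9 were near the floor too, with under 3 reads in combination replicate 2. FZD8, a Wnt receptor without introns, measured 426 and 452 in control and 8.2 and 1.82 with the combination, which is 8 reads and 1 read. FRAT1, another gene of Wnt signalling, fell from 773 and 712 to 51.3 and 9.12. SOX9, a transcription factor of epithelial progenitors, fell from 196 and 255 to 10.3 and 3.65 (log2 -4.95). SNAI1 and SNAI2, repressors of epithelial genes, had 5 and 1 and 4 and 0 reads left in the combination libraries, against 114 to 166 and 78.8 to 124 normalised counts in control. The fitted size of such falls depends on the value added before taking logs, since so few reads remain.

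Negative feedback genes fell across several pathways. Among 14 feedback inhibitors of receptor tyrosine kinases 11 fell and 2 rose (median -1.47), led by the MAP kinase phosphatases DUSP5 (126 and 129 to 11.3 and 10.9) and DUSP4 (1619 and 1390 to 265 and 184, log2 -2.76). Of 12 tested feedback genes of BMP and TGF-beta signalling 10 fell and 1 rose (median -0.97). BAMBI, a decoy receptor, fell from 1661 and 1363 to 322 and 126 (log2 -2.90), and the corepressor TGIF1 fell by 2.31 on the log2 scale. ID3, a dominant-negative helix-loop-helix protein, was the member that rose, from 747 and 1194 to 4568 and 2032 (log2 1.69). Of 17 KLF and SP factors 11 fell and 1 rose (median -1.15), with KLF4 going from 670 and 532 to 70.7 and 76.6 (log2 -3.00) and KLF5 from 195 and 249 to 28.7 and 34.6 (log2 -2.77).

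The promoters of 4 of these genes hold different sets of short core elements when exact letters are searched. Each sequence is the 120 bases before the RefSeq start on build GRCh38.p14, printed 5′ to 3′ on the gene's strand, with core elements in capitals: TATAAA (the TATA box), CCAAT (the CCAAT box) or GGGCGG (the GC box), on either strand. FZD8 (chr10:35642297-35642416, minus strand), IER5 (chr1:181088580-181088699, plus strand) and BTG2 (chr1:203305399-203305518, plus strand) stand for the deep falls, and HEXIM1 (chr17:45148355-45148474, plus strand) for the P-TEFb inhibitor.
FZD8: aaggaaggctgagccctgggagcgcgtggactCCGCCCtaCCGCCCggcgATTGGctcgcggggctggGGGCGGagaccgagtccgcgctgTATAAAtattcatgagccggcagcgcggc
IER5: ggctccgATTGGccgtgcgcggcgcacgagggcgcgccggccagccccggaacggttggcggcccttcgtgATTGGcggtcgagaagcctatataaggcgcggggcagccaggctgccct
BTG2: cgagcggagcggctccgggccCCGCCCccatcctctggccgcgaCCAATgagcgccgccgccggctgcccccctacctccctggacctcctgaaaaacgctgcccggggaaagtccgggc
HEXIM1: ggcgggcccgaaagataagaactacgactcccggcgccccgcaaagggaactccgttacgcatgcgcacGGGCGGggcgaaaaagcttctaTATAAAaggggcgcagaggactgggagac
TATAAA begins 29 bases before the start of both FZD8 and HEXIM1, and it occurs in 5.63% of all 35116 RefSeq windows of this length. Only exact letters were searched, so close variants are not in capitals. The tatataa of IER5 is such a variant, and its lack of TATAAA does not mean that it lacks a TATA box. CCAAT occurs in FZD8, IER5 (at 2 places) and BTG2 and in 20.4% of windows, and GGGCGG in FZD8, BTG2 and HEXIM1 and in 34%. Neither TGACGTCA, the cAMP response element (1.29% of windows), nor CACGTG, the E box (3.90%), is among these letters. Only 54.0% of tested genes have an entry in this table, too few for a comparison of promoters between rising and falling genes.

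Cell cycle genes fell more often than they rose. CCND1, cyclin D1, went from 21871 and 24885 to 12457 and 15332 (log2 -0.76, SE 0.097, adjusted p = 1.38e-05). CCNE2, cyclin E2, went from 5637 and 5694 to 1458 and 1220 (log2 -2.09). Of 43 genes of G1/S and DNA replication 21 fell and 2 rose, and of 34 genes of G2 and mitosis 19 fell and 3 rose, with medians of -0.25 and -0.31. AURKA, a mitotic kinase, showed the deepest fall of the mitotic list, from 6611 and 6689 to 1219 and 1439 (log2 -2.33). Of the CDK inhibitors, CDKN1B (p27) fell from 7954 and 8103 to 3828 and 3027 (log2 -1.24). CDKN1A (p21) went from 13401 and 15414 to 12018 and 11591 (log2 -0.28, adjusted p = 0.0125). That fall lost its call in 4 alternatives, including without control replicate 2 (log2 -0.18) and without combination replicate 2 (log2 -0.26).

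MYC and MCL1, both with short-lived mRNAs, fell modestly. MYC measured 13649 and 15319 in control, 15662 and 15943 with AT7519 and 9927 and 10353 with both agents (log2 -0.51, SE 0.078, adjusted p = 6.88e-05 against control). MCL1, a survival protein of the BCL2 family, measured 25198 and 25973 in control, 38254 and 32764 with AT7519 and 20373 and 20099 with both agents (log2 -0.34, SE 0.08, adjusted p = 0.00241). On the deposited scale the combination libraries were the lowest of all 8 in both genes, and AT7519 alone left neither below control. With mitochondrially encoded mRNAs set equal, the median of all tested genes was -0.92 with AT7519 alone against control. Whether AT7519 alone left these 2 genes below control may thus depend on the scale. Over the 22 tested BCL2 family genes and apoptosis inhibitors 13 fell and 3 rose (median -0.62). Survival genes and death genes were both among the falls: BCL2L1 (log2 -0.64), BCL2 (log2 -1.15) and BIRC3 (817 and 973 to 147 and 221, log2 -2.30) protect cells, whereas PMAIP1, which encodes NOXA (2726 and 3127 to 704 and 553, log2 -2.22), promotes death. Of 12 tested genes of the MYC, MAX and MXD network 5 fell and 3 rose.

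Genes of prostate lineage and androgen response moved in both directions, with regulators that fell and kallikreins that did not. Of 17 tested lineage factors and coregulators 12 fell and 1 rose (median -0.78). TRIM24, a transcriptional coactivator, fell by 1.41 on the log2 scale, and HOXB13, a prostate homeobox factor, fell by 0.43. KLK3, which encodes prostate-specific antigen, measured 93639 and 98725 in control and 118885 and 156727 with the combination (log2 0.51, SE 0.11, adjusted p = 0.00167), and KLK2, the neighbouring kallikrein, rose by 0.80 (-0.17 with mitochondrially encoded mRNAs set equal). The rise of KLK3 was not called with equal totals (log2 0.25) and its sign turned with quantile normalisation (log2 -0.08) and with mitochondrially encoded mRNAs set equal (log2 -0.47). Among 30 androgen target genes 15 rose and 8 fell, a list whose median of 0.17 became -0.09 with equal totals and -0.81 with equal mitochondrially encoded mRNAs. MAF, a transcription factor of that list, fell from 695 and 963 to 179 and 268.

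Metabolic signalling genes fell at the level of adaptors and transcription factors. Of 18 tested insulin and PI3K adaptors and FOXO factors 14 fell and 3 rose (median -1.17). IRS2, an adaptor of the insulin receptor, went from 332 and 274 to 36.9 and 54.7 (log2 -2.72), and PIK3R1, the regulatory subunit of PI3K, from 16968 and 19185 to 3875 and 3822 (log2 -2.23, SE 0.095, adjusted p = 1.71e-09). Of 18 circadian genes 11 fell and 1 rose (median -0.76), with the output factor TEF (log2 -2.52) and the repressor BHLHE40 (log2 -2.23) lowest. Over 28 genes of cholesterol synthesis and SREBP2 targets 11 fell and 7 rose (median -0.14).

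Stress responses gave no single direction. Of 34 genes of the integrated stress response 10 rose and 12 fell, where the degrading enzyme CHAC1 fell from 1881 and 1703 to 261 and 170 (log2 -3.08) and the metabolic targets PCK2 (log2 1.01) and PHGDH (log2 0.92) rose. With mitochondrially encoded mRNAs set equal, PCK2 stood at 0.03 without a call and PHGDH at -0.06. Heat shock genes gave 9 rises and 6 falls among 29, with the chaperone partner DNAJB1 down from 7703 and 7986 to 1545 and 1173 (log2 -2.54). Of 32 p53 targets 18 fell and 4 rose (median -0.36), among them MDM2, the ligase that degrades p53 (log2 -0.90), and GDF15, a secreted stress cytokine that rose by 0.72 but stood at -0.26 with mitochondrially encoded mRNAs set equal. NFE2L2, the NRF2 factor itself, fell from 6154 and 6067 to 2298 and 2046 (log2 -1.49), while of 24 genes of NRF2 and antioxidant defence 12 rose and 5 fell. FTH1, a ferritin subunit, showed the largest rise among them (log2 0.97, and -0.01 with mitochondrially encoded mRNAs set equal). Of 26 chaperones and unfolded protein response genes of the endoplasmic reticulum 17 rose and 3 fell, their median of 0.41 becoming -0.57 with mitochondrially encoded mRNAs set equal. XBP1 (log2 -1.22), a transcription factor of that response, and HERPUD1 (log2 -1.25) were among the 3 that fell.

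Genes of transcription itself tended to fall, with exceptions in its core machinery. Mediator, the bridge between activators and polymerase, had 18 of 29 subunits lower and 4 higher (median -0.33), with MED18 falling from 2237 and 2324 to 552 and 252 (log2 -2.61) and MED13 from 11238 and 10390 to 2728 and 2637 (log2 -2.01). Integrator, cleavage and termination factors gave 19 falls and 7 rises among 35. PPP1R10, which targets phosphatase 1 to chromatin and to polymerase termination, measured 11608 and 11938 in control, 794 and 981 with AT7519 and 1950 and 2467 with both agents (log2 -2.42 against control, adjusted p = 4.52e-09). The combination libraries thus lay between the AT7519 libraries and control. Polymerase II subunits and general factors were even, with 12 rises and 11 falls among 34, and GTF2E1 of TFIIE fell most (log2 -2.39). Zinc finger genes, many of them repressors, formed the largest list: of 475 tested ZNF genes 289 fell and 54 rose, with a median of -0.59. ZNF503 (642 and 486 to 64.6 and 18.2) and ZNF784 (823 and 804 to 91.2 and 74.8) fell most among them.

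**Figure D2:**
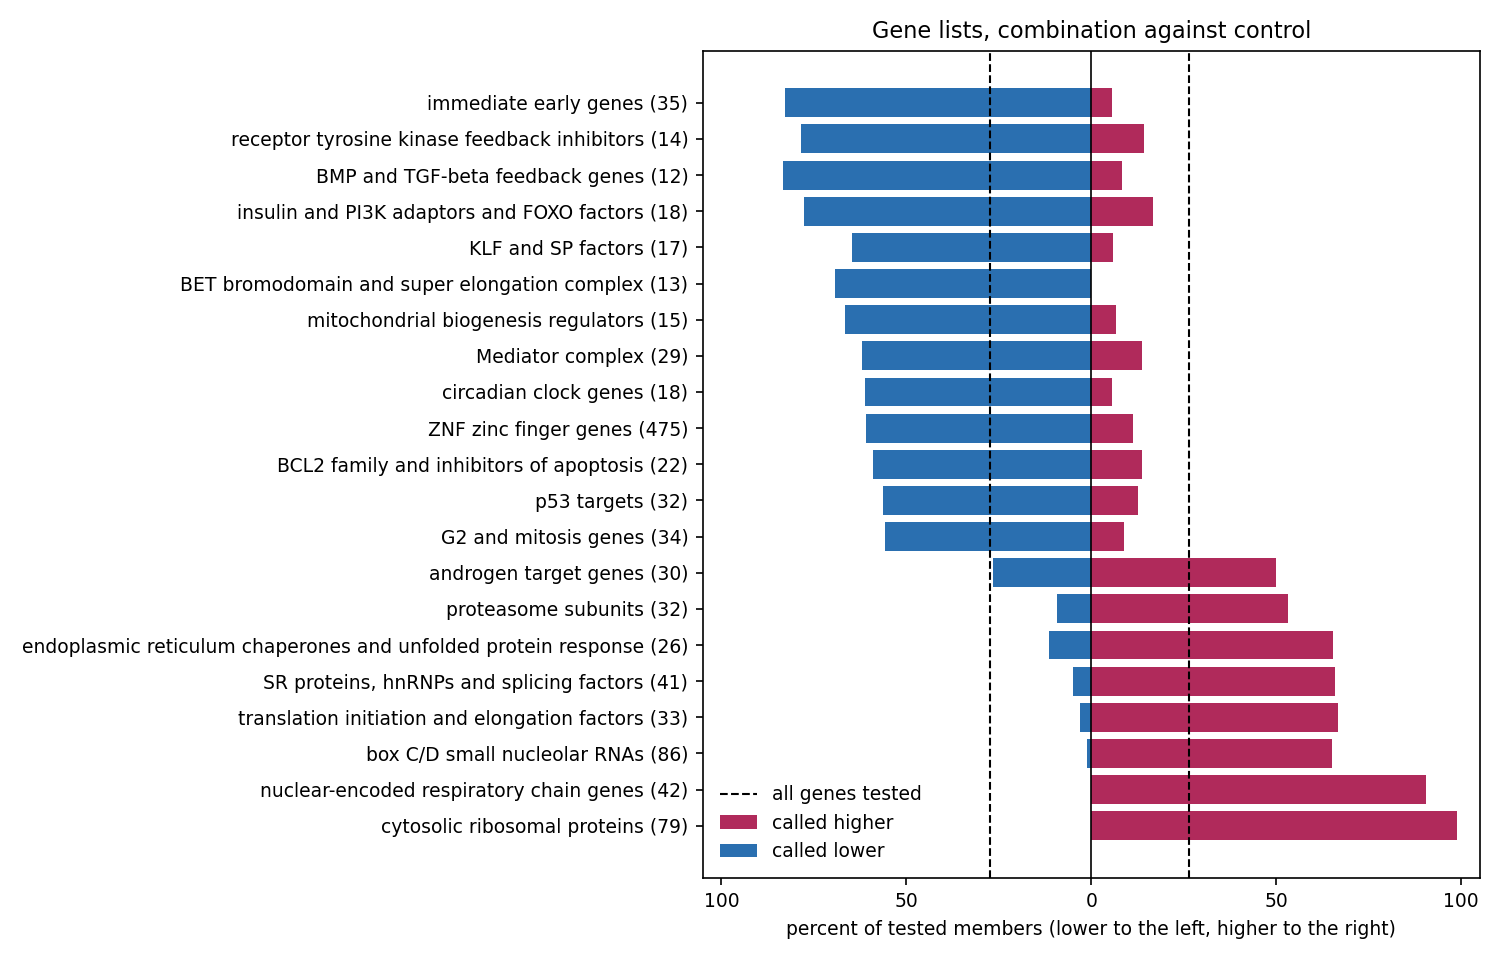
Share of the tested members of 21 gene lists (number tested in parentheses) called lower (left) or higher (right) in the combination against control; dashed lines mark the shares over all genes tested, 27.5% and 26.3%. Immediate early, feedback and adaptor genes lie mostly to the left and ribosomal protein and respiratory chain genes mostly to the right. With mitochondrially encoded mRNAs set equal, the lists on the right had more falls than rises, as had all genes tested (433 rose, 14548 fell). The box C/D small nucleolar RNAs were the exception.

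Ribosomal protein and respiratory chain mRNAs rose almost throughout on the deposited scale, but had medians under 0 with mitochondrially encoded mRNAs set equal. On that last scale both medians, given below, stayed above the -0.94 of all tested genes. Of 79 cytosolic ribosomal protein genes 78 rose and none fell, with a median of 0.77 that became 0.51 with equal totals and -0.21 with mitochondrially encoded mRNAs set equal (3 rises, 35 falls). RPS15A was among the highest, with 11920 and 13089 in control and 35022 and 41572 with the combination (log2 1.61, SE 0.099, adjusted p = 1.94e-08). Ribosomal protein genes have many pseudogenes with which reads can be shared. Of 42 nuclear-encoded respiratory chain genes 38 rose and none fell, with a median of 0.53 (-0.45 with mitochondrially encoded mRNAs set equal). NDUFV2, a subunit of complex I, went from 255 and 197 to 1319 and 1100 (log2 2.42). All 13 mitochondrially encoded mRNAs rose, with a median of 0.99, and MT-ND3 went from 43333 and 39407 to 84698 and 89896. In contrast, the nuclear regulators of mitochondrial biogenesis gave 10 falls and 1 rise among 15, with PPARGC1B going from 1221 and 1360 to 325 and 290 (log2 -2.07).

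Genes of splicing, translation and the proteasome rose more often than they fell on the deposited scale, though not with mitochondrially encoded mRNAs set equal. Of 41 SR proteins, hnRNPs and splicing factors 27 rose and 2 fell, the median of 0.28 becoming 0.02 with equal totals and -0.70 with mitochondrially encoded mRNAs set equal. HNRNPH1, a splicing regulator, went from 76508 and 75165 to 148945 and 146220 (log2 0.96), U2AF1, which recognises the end of introns, rose by 0.94, and both stood near 0 (-0.02 and -0.04) on that last scale. The splicing kinases CLK1 (6502 and 5472 to 13873 and 11721, log2 1.10) and CLK3 (log2 1.17) rose (0.12 and 0.20, neither called, with mitochondrially encoded mRNAs set equal), while DYRK2 fell from 1841 and 2005 to 314 and 171. Of 33 translation factors 22 rose and 1 fell (median 0.44, or -0.54 with mitochondrially encoded mRNAs set equal). EIF4A1, the helicase that unwinds mRNA leaders, measured 1097 and 1050 in control, 8309 and 14034 with AT7519 and 11526 and 10222 with both agents (log2 3.34, SE 0.17, adjusted p = 5.25e-09). It shares its locus with a read-through transcript, SENP3-EIF4A1, so how reads were divided between them bears on this value. EIF5 was the translation factor that fell (log2 -0.66). Of 32 proteasome subunits 17 rose and 3 fell, with a median of 0.21 that became -0.05 with equal totals and -0.77 with mitochondrially encoded mRNAs set equal.

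Small nucleolar RNAs rose more often than they fell, also with mitochondrially encoded mRNAs set equal. Box C/D small nucleolar RNAs guide methylation of ribosomal RNA, and many are released from introns of host genes. Of the 275 listed, 86 could be tested, and 23 of these had a mean under 10 in control and so passed the minimum only through the combination, where they are high. Of the other 63, whose control mean was at least 10, 37 rose and 1 fell (27 and 12 with mitochondrially encoded mRNAs set equal). Of the 135 box H/ACA and Cajal body RNAs, which guide pseudouridylation, 79 could be tested, 16 of them only through the combination. Of the other 63, 39 rose and 4 fell (17 and 10 with mitochondrially encoded mRNAs set equal). In gene counts, reads from a host transcript and from a small RNA on the same bases and strand cannot be told apart. Of the 17 tested small nucleolar RNA host transcripts 12 rose and 1 fell (3 and 11 with mitochondrially encoded mRNAs set equal), SNHG1 going from 12430 and 12509 to 32158 and 29945 (log2 1.32).

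According to GENCODE release 29, each of the 10 largest rises overlaps a protein-coding gene on its own strand. Of the 13421 matched genes with a mean of at least 50, from which these were chosen, 11.3% lie so, and of the 1367 of them that are not protein-coding 16.9%. All 10 rises had a control mean under 50, so each met that minimum only through the combination, where it is high. The 2 shares were not restricted to genes chosen in that way and are no matched background for the 10. SNORD37, within EEF2, went from 25.3 and 9.16 to 432 and 487 (log2 4.81), and EID3, an intronless gene within TXNRD1, from 22.9 and 31.1 to 700 and 525 (log2 4.45). None of the combination values overlapped control. The host genes moved far less: EEF2 changed by 0.75 and TXNRD1 by -0.01 on the log2 scale. Among the 10 hosts 5 rose, 1 fell and 4 were not called. The other rises of this set with a control mean of at least 10 were TYRO3P, RNF138P1, SNORD59A, TNRC18P1 and RHOA-IT1, each with a log2 change of at least 4.27. The remaining 3, RPL29P14 (4.12 and 2.75 normalised counts in control, 322 and 323 with the combination), COX7A2P1 and LRRC70, had a control mean under 10, so they were tested only because they are high with the combination, and their fitted size depends on the value added before taking logs.

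**Figure D3:**
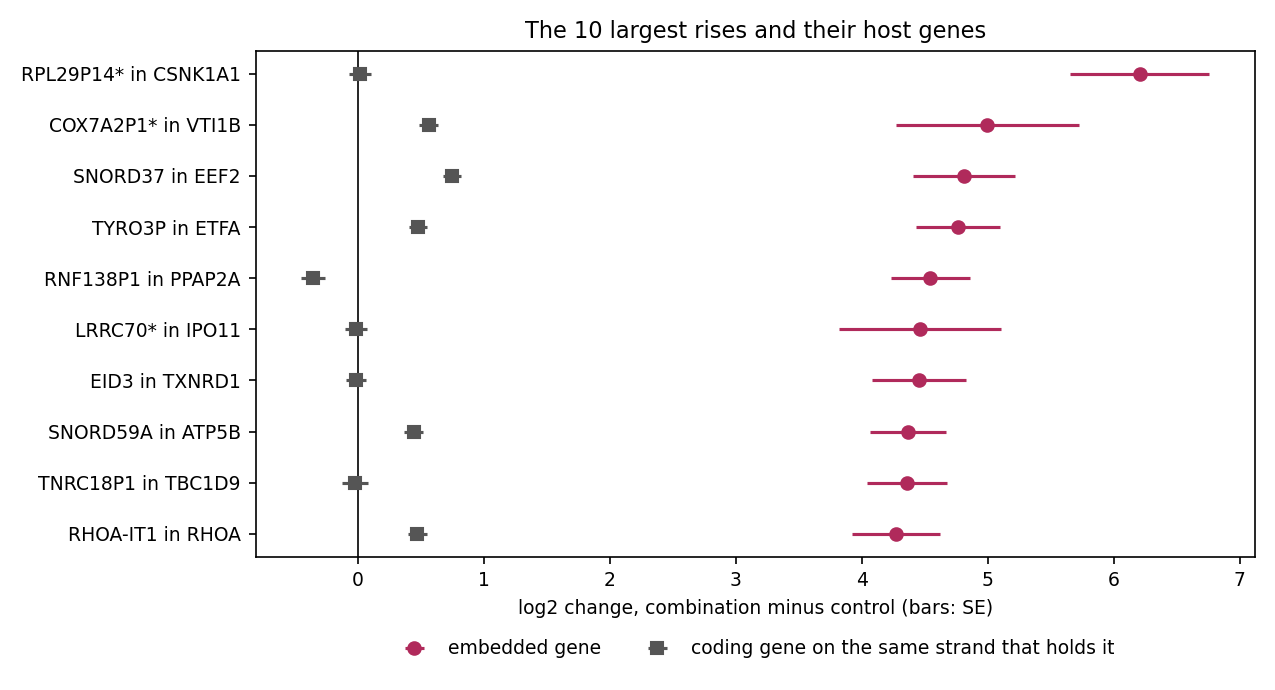
Log2 change (combination minus control, with SE bars) of the 10 genes with the largest rises and of the protein-coding gene on the same strand that holds each; an asterisk marks the 3 genes with a control mean under 10, whose size depends on the value added before taking logs. The embedded genes lie between 4.27 and 6.21, and their hosts between -0.35 and 0.75. All 10 embedded genes had a control mean under 50 and met the minimum mean of 50 for naming only through the combination.

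Classes of embedded genes also differed by position. The shares by position cover genes with a control mean of at least 10, which leaves out those tested only through the combination. Small nucleolar RNA genes inside or across a coding gene on the same strand rose in 79.7% of 64 cases, and those elsewhere in 35.1% of 37 (with mitochondrially encoded mRNAs set equal, 30 rises and 9 falls inside, 7 and 9 elsewhere). For processed pseudogenes the shares were 36.4% of 132 inside such genes and 25.3% of 651 elsewhere, and for microRNA loci 28.9% of 38 and 13.3% of 30. Falls inside and elsewhere numbered 4 and 30 for the pseudogenes and 4 and 10 for the microRNA loci. With mitochondrially encoded mRNAs set equal, the pseudogenes gave 16 rises and 37 falls inside and 3 and 253 elsewhere. The microRNA loci then gave 4 rises and 13 falls inside and 0 and 19 elsewhere. On that scale 433 of all 19416 tested genes rose and 14548 fell, without that minimum in control. On the deposited scale, again without it, 26.3% of all tested genes rose, close to the microRNA share inside and the pseudogene share elsewhere. Of 360 antisense genes, also taken without it, 11.4% rose, below that share, and 29.2% fell, near the 27.5% of all genes.

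Gene structure moved with the direction of change among 13318 nuclear protein-coding genes. Of 509 genes whose longest spliced transcript has at most 1 kb, 55.6% rose and 6.09% fell. At the other end, 14.9% of 1124 genes with transcripts over 8 kb rose and 49.8% fell, and the bins between followed in order. Genes with 1 exon (12.2% of 262 rose, 48.5% fell) or 2 exons (12.3% of 478 rose, 53.8% fell) also leaned to falls. Of 269 genes with 1 or 2 exons and a transcript over 3 kb 71.4% fell, against 38.9% of 6678 genes with more than 4 exons and transcripts as long. Symbols of 81.3% of tested genes were matched to the annotation, so these shares leave out the unmatched ones, and genes are not independent replicates. With mitochondrially encoded mRNAs set equal the medians ran from -0.50 in the shortest to -1.31 in the longest class. AT7519 alone gave the same order of medians, from 0.59 in the shortest to -0.33 in the longest class, where the combination gave 0.47 and -0.33; these comparisons share their control libraries.

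**Figure D4:**
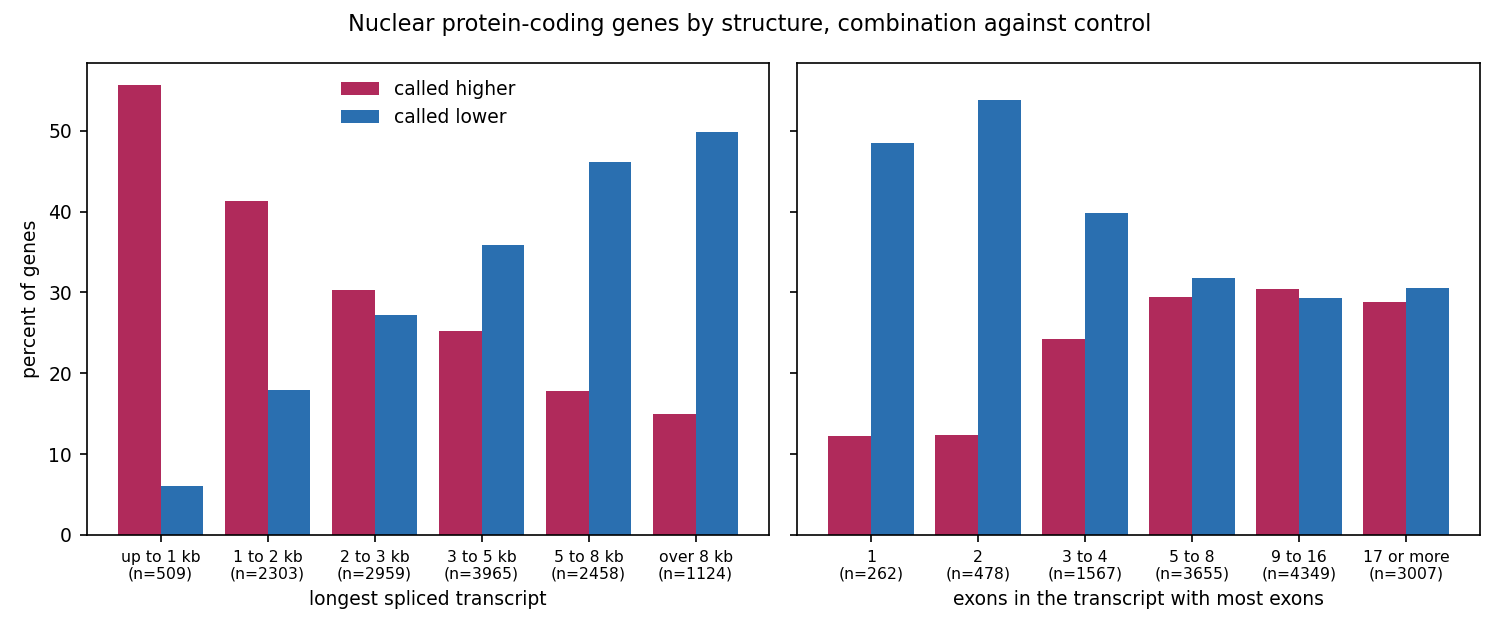
Percent of nuclear protein-coding genes called higher or lower in the combination against control, by length of the longest spliced transcript (left) and by largest number of exons in a transcript (right), with the number of genes per bin. Short transcripts were more often higher than lower (55.6% against 6.09% up to 1 kb) and long ones more often lower than higher (49.8% against 14.9% over 8 kb), and genes with 1 or 2 exons were more often lower than higher.

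Adding OSMI-2 to AT7519 changed fewer genes than the combination did against control. Between the combination and AT7519 alone, 3828 genes (19.7%) were called, 1418 higher (7.3%) and 2410 lower (12.4%). The total was 1690 without combination replicate 2 and 2199 without AT7519 replicate 1. With equal totals the split was 2036 higher and 1531 lower, with equal upper quartiles 2244 and 1429, and with quantile normalisation 1367 and 1465. The falls included SOX9 (71 and 35.6 with AT7519 to 10.3 and 3.65, log2 -2.83), IER5 (log2 -2.73), CYR61 (516 and 439 to 107 and 65.7, log2 -2.49) and CITED2 (1054 and 713 to 243 and 139, log2 -2.23). In each, the combination libraries lay below both AT7519 libraries. CCNT1 was lower by 0.87, MCL1 by 0.81, MYC by 0.64 and CDKN1A by 0.59 on the log2 scale, all called. CDK9, which AT7519 alone had raised to 8127 and 8640, was lower with both agents by 0.45. That fall lost its call in 2 alternatives, including without combination replicate 2 (log2 -0.34). Among the 6 largest rises by the rule for named genes was COL16A1, a collagen gene, with 347 and 563 with AT7519 and 1994 and 1802 with both agents (log2 2.10, adjusted p = 4.35e-05). OSMI-2 alone had COL16A1 at 1502 and 1112 and control at 418 and 424.

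Several lists lay to one side in this comparison. Of 34 ribosome biogenesis genes 26 were lower and none higher, of 29 heat shock genes and chaperonins 23 and none, of 43 G1/S genes 23 and none, of 34 G2 and mitosis genes 21 and none, and of 32 proteasome subunits 23 and 1. Of 79 cytosolic ribosomal protein genes, by contrast, 1 was lower and none higher. The medians of the 5 lists with many falls were below 0 on each of the 6 scales tried. All these counts stand against 12.4% lower and 7.3% higher over all genes. The same 5 lists also lay to this side with OSMI-2 alone against control. There 17 ribosome biogenesis, 17 heat shock, 16 G1/S, 9 G2 and mitosis and 15 proteasome genes were lower and none higher. No member of these lists had a called interaction, so their falls were not confined to cells with AT7519. HEXIM1 (log2 0.06, SE 0.11) and MEPCE (log2 0.00, SE 0.12) showed no detectable difference between the combination and AT7519 alone.

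Whether the joint effect of the 2 agents differed in either direction from the sum of their separate log2 effects was tested with the interaction term. At an adjusted p under 0.05, 203 genes (1.05%) were called, 13 higher than the sum (0.067%) and 190 lower (0.979%). CYR61, for example, measured 838 and 769 in control, 712 and 660 with OSMI-2, 516 and 439 with AT7519 and 107 and 65.7 with both, an interaction of -2.27 (SE 0.29, adjusted p = 0.00673). Of 28 cholesterol genes 10 were lower than the sum, among them INSIG1, which restrains SREBP processing (19028 and 13180 in control, 26376 and 33583 with OSMI-2, 14182 and 10558 with AT7519, 8531 and 10909 with both). The fall of INSIG1 against control lost its call in 2 alternatives, including without control replicate 1 (log2 -0.45). Of 35 immediate early genes 10 and of 32 p53 targets 8 were lower than the sum, and IER5 (log2 -2.35), CYR61, CITED2 (log2 -2.16), BTG2 (log2 -1.95) and BTG1 (log2 -1.68) were among the 6 largest by the rule for named genes. The few genes higher than the sum included PPP1R10 (log2 1.29), SMAD6 (log2 1.41), ZNF382 (log2 1.08), XRCC2 (log2 0.79) and AJUBA (log2 0.71), whose combination libraries lay above both AT7519 libraries.

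**Figure D5:**
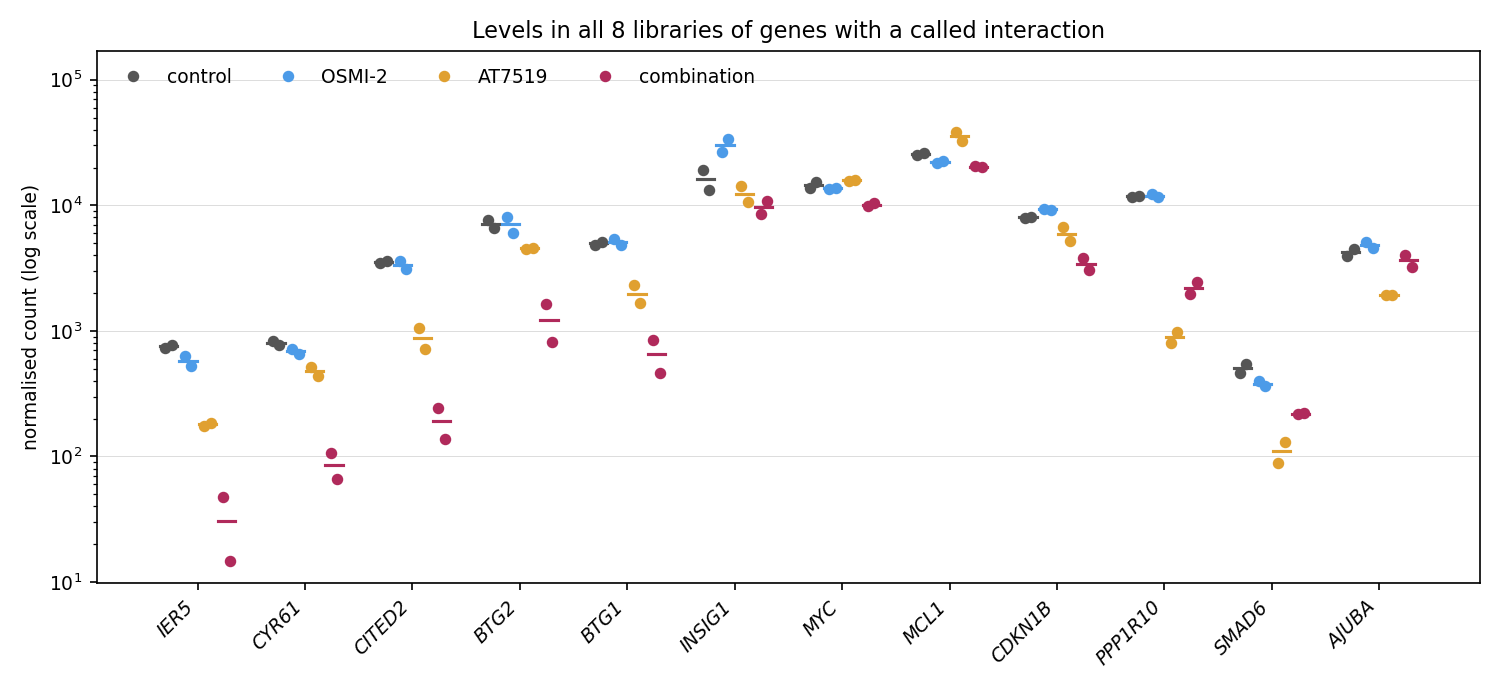
Normalised counts (log axis) of 12 genes with a called interaction in all 8 libraries; points are libraries and short bars are group means. IER5, CITED2 and BTG2 are lowest with the combination, while PPP1R10, SMAD6 and AJUBA lie between AT7519 alone and control.

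The number of genes with a called interaction varied widely between libraries and tools. Leaving out 1 library left between 2 (without control replicate 2) and 522 (without AT7519 replicate 2) genes called, and each omission of a control or OSMI-2 library left at most 11. Without a mean-variance trend limma called 0 genes, with 1798 at an unadjusted p under 0.05, while edgeR called 196 and DESeq2 601. Of the 24 named genes with a called interaction, 23 lost the call without control replicate 1 (GDF15 kept it) and all 24 without control replicate 2. Without OSMI-2 replicate 1 or replicate 2, 22 and 23 lost it.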

How the data were processed

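RNA of 8 LNCaP libraries was sequenced after a strand-specific TruSeq preparation, per the labels' protocols. The deposited values are a signal, since the authors divided each library's gene read counts by its size factor. STAR, HTSeq and DESeq2 are named as tools, and hg19 and GRCh37 as builds, per the submitters' processing notes. Not given in the sources used here are tool versions, the annotation and whether counting used strand. Dividing by each library's smallest step gave whole reads for all values (tolerance 0.01 reads). After 28 blank lines were dropped, genes with a mean of at least 10 over the control and combination libraries were kept (19416 genes, holding 99.97% of the values' sum).

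All comparisons come from 1 limma model (3.58.1, R 4.3.3) of the 4 group means on log2(value + 1), with a mean-variance trend, 4 residual and 10.2 prior degrees of freedom. Its two-sided p-values were adjusted by Benjamini-Hochberg over all tested genes and called under 0.05. The interaction is the combination minus OSMI-2 minus AT7519 plus control. Folds are 2 raised to the fitted log2 change. The procedure was tested on simulated data. edgeR 4.0.16 and DESeq2 1.42.0 on the recovered reads, other scalings, filters and added values, a replicate block and the omission of each library were alternatives.

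Genes were named as the 10 largest changes each way among those with a mean of at least 50, up to 2 per list each way, a fixed list of pathway genes, and 6 each way in the other comparisons, of which the text gives a selection. The members and lists were chosen with earlier results of these data known. Symbols were matched to GENCODE 29 for gene types, structure and overlaps alone, since its build differs, and promoters are RefSeq's. AFF1, BRD2, CCND1, CCNE2, CLK3, DNAJB1, FTH1, GTF2E1, LARP7, LEO1, MDM2, MEPCE, NFE2L2, PCK2, PPP1R10, ZNF382 and CCDC87 overlap a gene on the opposite strand, so their values are uncertain if counting ignored strand. KLK2 and KLK3, HNRNPH1, and ribosomal protein genes and their pseudogenes are near-identical copies that may share reads. Some genes are not reported here.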

Additional observations from a re-analysis of the deposited data

Results flagged for a closer look

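For 24 named genes the effect of OSMI-2 with AT7519 present differed from its effect without it, by the interaction term of the limma model (adjusted p under 0.05 for each). The values below are differences between these 2 effects on the log2 scale, each from 2 libraries a group.

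Most lay below 0, which means that the combination was lower than the sum of the separate effects. Immediate early and signalling genes gave IER5 at -2.35, CYR61 at -2.27, CITED2 at -2.16, BTG2 at -1.95, BTG1 at -1.68, PLK2 at -1.54, KLF4 at -1.53, DUSP4 at -1.36 and TGIF1 at -1.06. INSIG1, which restrains cholesterol synthesis, stood at -1.25. CDKN1B stood at -1.01, GDF15 at -0.87, NFE2L2 at -0.75 and PIK3R1 at -0.63. Of the elongation genes, CCNT1 stood at -0.80 and BRD2 at -0.73. MYC and MCL1 stood at -0.55 and -0.60.

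Genes with a combination above the sum were SMAD6 at 1.41, PPP1R10 at 1.29, ZNF382 at 1.08, XRCC2 at 0.79, AJUBA at 0.71 and MGEA5 at 0.60. For MGEA5, the O-GlcNAc hydrolase, the combination did not differ from control by the same test.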

How the results depend on the processing

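The comparison with control kept its size under most alternatives. Its total of 10450 called genes was 10552 with edgeR and 10195 with DESeq2 on recovered reads, and 8307 to 10868 with 1 library left out (3937 to 5309 higher, 4370 to 5559 lower). Its direction moved with scaling alone: 2660 genes were higher with equal totals, and 433 higher and 14548 lower with mitochondrially encoded mRNAs set equal. Over 100 named genes and their alternatives, 2166 of 2200 results kept their side of the threshold with no sign change in a called gene. In 16 the sign changed for a gene called in either fit. Changes of sign between uncalled results were not counted. The named genes were mostly chosen among called genes with large changes in this same fit, so that share does not describe genes in general. With mitochondrially encoded mRNAs set equal the log2 changes were -0.30 for OGT, -0.92 for MGEA5, -0.29 for GFPT1, -0.66 for CDK9, -0.41 for NELFCD, -0.43 for SUPT5H, -0.47 for KLK3, -0.17 for KLK2, -0.063 for PHGDH, -0.26 for GDF15, -0.018 for HNRNPH1, -0.041 for U2AF1 and -0.00793 for FTH1. MGEA5 stood at -0.20 with equal totals and with quantile normalisation, where KLK3 stood at -0.080.

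The comparison with AT7519 alone (3828 called) had 863 calls (372 higher, 491 lower) without a variance trend. It had 2244 higher and 1429 lower with equal upper quartiles, 1531 lower with equal totals and 1465 lower with quantile normalisation. With 1 library left out it had 1690 to 3887 calls (537 to 1634 higher, 1153 to 2253 lower), the lowest values without combination replicate 2.

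The interaction (203 called) was the least stable of the 3 comparisons in its count. It gave 601 calls with DESeq2 (59 higher, 542 lower), 124 with equal upper quartiles (112 lower), 63 without a filter on low values (2 higher, 61 lower) and 131 with quantile normalisation (6 higher, 125 lower). Setting mitochondrially encoded mRNAs equal gave 53 higher. Without a variance trend limma gave 0, with 0 in each direction, and 1798 at an unadjusted p under 0.05. With 1 library left out it gave 2 to 522 (0 to 127 higher, 2 to 403 lower). Over the 24 named genes 192 of 504 results lost the call, and none changed sign. Where a value changed, the cause was not tested.

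Replicate numbers did not pair the libraries, since deviations of same-numbered libraries correlated at 0.011 to 0.123. With the replicate block 10732 genes were called against control, 4308 against AT7519 alone, and 408 for the interaction (39 higher, 369 lower). Depth limits genes left with few reads, such as FZD8 and SNAI2, and 2 libraries a group limit every test. An omitted library leaves 1 in its group, which is then assumed to vary like the others.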
